A study of Mus musculus with 14 samples.

Results

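Expression of 38 genes for collagens, other structural proteins of the extracellular matrix and proteins that cross-link or degrade the matrix was examined in mouse liver between 3 and 8 wk of age. The genes were taken by name, and each was read from the brightest probe whose RefSeq accession belonged to that gene. In this way 37 of the 38 had a probe, among 19751 genes that had one, and Col6a3 was not analysed here. Liver RNA of male (M) and female (F) CD-1 mice aged 3, 4 or 8 wk was compared in 3 sex comparisons (M3/F3, M4/F4 and M8/F8) and 4 age comparisons (M8/M3 and M8/M4 for males, F8/F3 and F8/F4 for females), and each ratio gives the first group over the second. Every comparison had 2 Agilent arrays, each hybridized with a separate pair of RNA pools from whole, snap-frozen livers, with the red and green Alexa dyes in opposite order on the 2 arrays. A pool held RNA of 5 mice at 3 wk and of 6 mice at 4 and 8 wk, so the spread among single animals is averaged out within pools. No mutation or treatment is named for any of the 6 groups, and each group entered 2 or 3 comparisons with its pools. The age comparisons show how matrix gene expression differs between prepubertal and young adult liver, and the sex comparisons show whether male and female liver differ at a given age.

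The extracellular matrix of the liver lies around vessels and bile ducts and, as a thin layer, in the space between sinusoids and hepatocytes. Fibrillar collagens form its tensile fibres, collagen IV and laminins form basement membranes, elastin and fibrillin form elastic fibres, and lysyl oxidases join the chains into stable polymers. Most fibrillar collagen of the liver is made by hepatic stellate cells and portal fibroblasts, whereas plasma fibronectin comes from hepatocytes.

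The sequences upstream of 4 of the genes are shown because these genes mark the main patterns of the members: Col1a2, Col3a1 and Sparc were lower at 8 wk in all 4 age comparisons, and Col27a1 was higher at 8 wk in male liver. They are the 250 bases before a transcript start that the RefSeq table gives for each gene in build GRCm38.p6, at chr6:4505368-4505617 (plus strand), chr1:45311288-45311537 (plus strand), chr11:55420081-55420330 (minus strand) and chr4:63215162-63215411 (plus strand). The window of Col27a1 lies inside the gene, whose first base RefSeq puts at 63214009, and so before a later transcript start. Each is written 5′ to 3′ on the strand of the gene, with capitals marking every match, on either strand, to a CCAAT box (CCAAT), a GC box (GGGCGG) or a TATA box (TATAAA).
Col1a2: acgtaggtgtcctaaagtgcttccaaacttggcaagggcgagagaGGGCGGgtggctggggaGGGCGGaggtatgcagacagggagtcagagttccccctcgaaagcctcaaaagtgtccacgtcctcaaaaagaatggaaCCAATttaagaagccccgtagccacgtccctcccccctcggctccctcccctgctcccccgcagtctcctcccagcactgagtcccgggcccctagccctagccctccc
Col3a1: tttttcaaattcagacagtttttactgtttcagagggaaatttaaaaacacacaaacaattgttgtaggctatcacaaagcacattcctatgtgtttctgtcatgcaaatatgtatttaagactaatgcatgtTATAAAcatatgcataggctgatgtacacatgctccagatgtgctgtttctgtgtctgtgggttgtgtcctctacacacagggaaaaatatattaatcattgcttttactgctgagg
Sparc: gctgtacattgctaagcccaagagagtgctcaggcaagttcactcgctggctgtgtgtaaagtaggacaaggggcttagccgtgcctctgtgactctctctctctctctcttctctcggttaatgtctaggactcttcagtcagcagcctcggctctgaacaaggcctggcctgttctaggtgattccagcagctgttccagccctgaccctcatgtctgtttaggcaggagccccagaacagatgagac
Col27a1: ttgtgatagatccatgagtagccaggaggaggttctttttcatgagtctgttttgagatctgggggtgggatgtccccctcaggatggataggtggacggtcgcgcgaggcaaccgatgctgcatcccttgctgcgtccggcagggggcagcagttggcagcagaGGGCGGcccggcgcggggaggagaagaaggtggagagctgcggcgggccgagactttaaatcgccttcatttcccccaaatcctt

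Among these 250-base windows, Col1a2 held 2 GC boxes and 1 CCAAT box, Col3a1 held 1 TATA box that begins 117 bases before the start, Col27a1 held 1 GC box, and Sparc held none of these motifs. No match in the 4 windows overlapped another. The RefSeq table had 32 windows for 27 of the members, of which 19 windows (59.4%) held a GC box, 9 (28.1%) a CCAAT box and 2 (6.25%) a TATA box. Among all 32851 windows of that table the shares were 32.7%, 33.8% and 12.4%. The 11 genes with a window that were lower at 8 wk in all 4 age comparisons had 13 windows, and 5 of these held a GC box. In the same table the 300-base windows around the starts of Col4a1 and Col4a2, which lie on opposite strands, shared 78 bases. A match is a description of the letters, and no binding was measured.

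Of the 43020 spots per array that were not controls, 55.2% to 77.2% were well above background in a channel, and 33 of the 37 members were well above background in all 28 channels. The exceptions were Col6a2 and Lox (27 channels each), Timp1 (18) and Col15a1 (16). The sex of the pools was checked with Xist, the transcript that silences an X chromosome in female cells, at log2 ratios of -5.32, -5.95 and -6.65 in M3/F3, M4/F4 and M8/F8, and with the Y-linked gene Ddx3y, at 6.56, 6.29 and 6.58. All 9 hepatocyte markers with a probe were well above background in all 28 channels. Precision is limited by there being 2 arrays for each comparison. Arrays that share pools were treated as independent, so p-values for comparisons in the same sex are not separate evidence.

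Most matrix genes were down regulated at 8 wk relative to the younger ages, in male and in female liver. A gene was called when the Benjamini-Hochberg adjusted p of the limma model was below 0.05, the ratio exceeded 1.5-fold in either direction, and 1 or both groups had a signal well above background on each array of the comparison. In M8/M3, 24 of 37 members were called lower at 8 wk, where 10% of the 14450 genes tested were. In F8/F3 the count was 21, against 6.64% of all genes tested. From 4 to 8 wk, 20 members were lower in M8/M4 and 19 in F8/F4, against 6.37% and 3.72% of all genes. Col27a1 was the only member called higher, in M8/M3 and M8/M4, where 7.81% and 4.43% of genes were called higher. By limma, no member was called higher in F8/F3 or F8/F4, against 5.08% and 2.28% of genes; error-weighted averages of the arrays also gave 0, and 1 and 3 members were above 0 at an unadjusted p below 0.05, as were 26.8% and 20.9% of all genes. Over the 37 members the median log2 ratio of male liver was -0.96 against 3 wk and -0.65 against 4 wk, and that of female liver was -0.86 and -0.59, while the medians over all genes tested were between 0.01 and 0.02.

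The 2 age comparisons of a sex share their 8 wk pools. Of the members, 18 were called lower in all 4 age comparisons, against 2.89% of the 14202 genes tested in all 4. All 8 age arrays were below 0 for 29 of the 37 members, against 19.1% of those genes. A further 6 members, Col4a2, Col6a2, Col14a1, Lamb1, Loxl1 and Tgfbi, were called lower in 1 to 3 of the comparisons. Among the 18, some F8/F4 calls rested on both arrays: without replicate 1 the call was lost for Col1a1 (-1.64), Postn (-0.56) and Mmp2 (-0.54), and without replicate 2 for Col1a1 (-1.36), Lama2 (-0.57) and Fbln5 (-0.50). In bulk liver RNA, fewer cells of a type and less RNA per cell cannot be told apart.

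**Figure D1:**
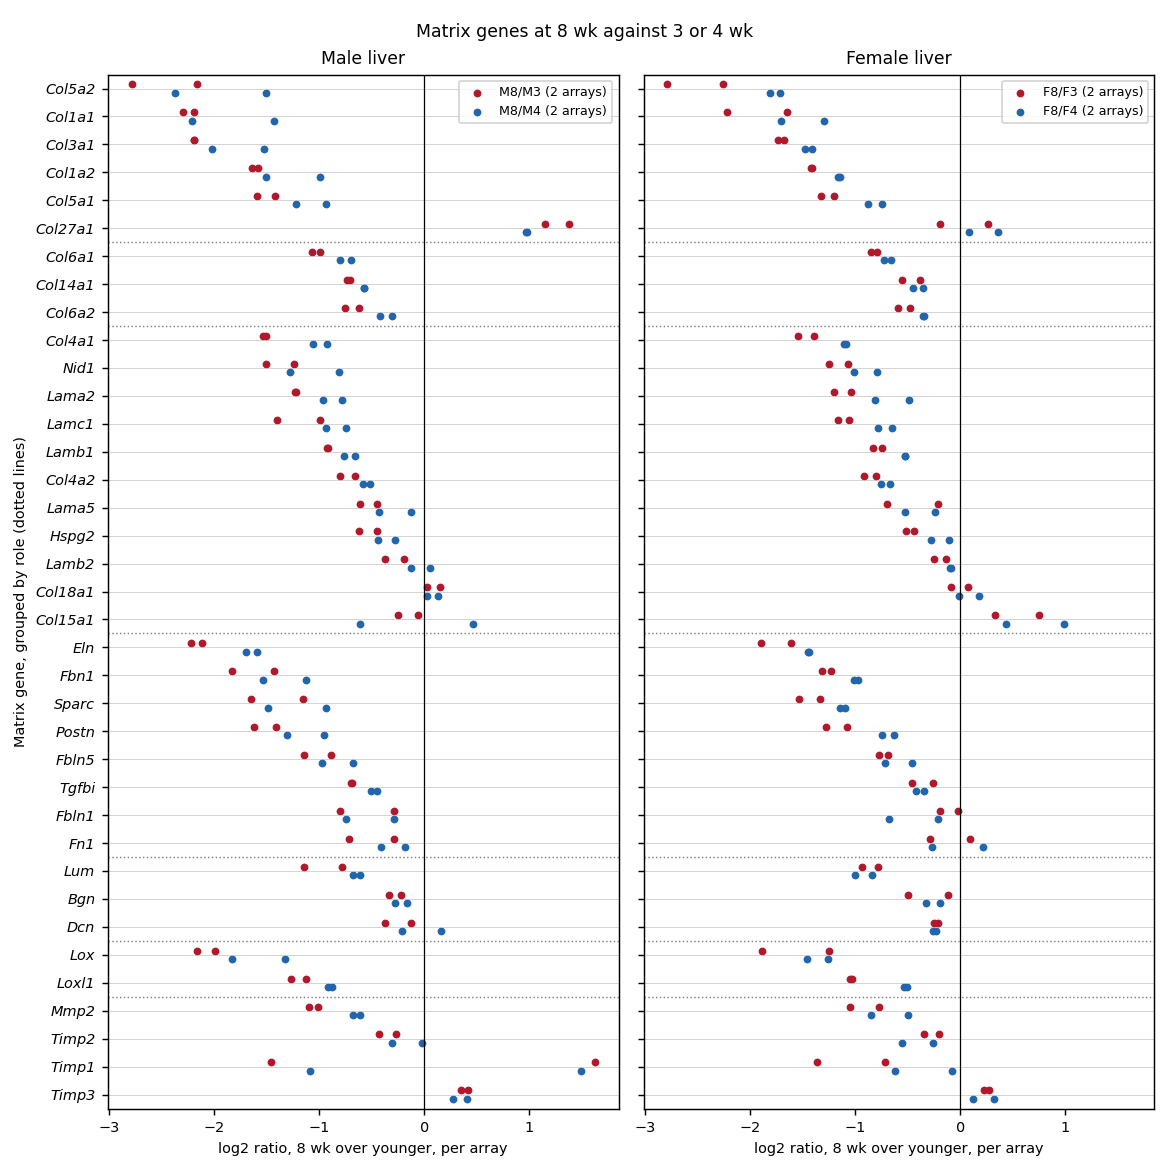
Log2 ratio of 8 wk over the younger age on each array (x axis) for the 37 matrix genes (y axis, grouped by role), in male liver on the left and female liver on the right; red points are ratios over 3 wk and blue points over 4 wk, 2 arrays each. Most points lie left of 0, Col5a2 has the lowest mean, and Col27a1 lies right of 0 on all 4 male arrays.

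Of the 6 fibrillar collagen genes, 5 were down regulated in each age comparison. Col1a1 and Col1a2 encode the chains of type I collagen, the main collagen of scar and portal tissue. On the 2 arrays of each comparison, given throughout in the order of replicate 1 and replicate 2, the log2 ratio of Col1a1 was -2.30 and -2.19 for M8/M3, -1.43 and -2.22 for M8/M4, -1.65 and -2.22 for F8/F3, and -1.30 and -1.71 for F8/F4. That of Col1a2 was -1.59 and -1.64 for M8/M3, -0.99 and -1.51 for M8/M4, -1.41 and -1.42 for F8/F3, and -1.16 and -1.15 for F8/F4. All 16 values lie below 0, and the fitted ratios correspond to 4.75-fold lower Col1a1 in M8/M3 (log2 -2.25, SE 0.248, adjusted p = 0.00188) and 3.82-fold lower in F8/F3 (log2 -1.93, adjusted p = 0.00333). For Col1a2 they were 3.06-fold lower in M8/M3 (adjusted p = 0.000471) and 2.67-fold lower in F8/F3 (adjusted p = 0.000747).

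Col3a1 encodes type III collagen, which forms the fine reticular fibres of the liver lobule. Its ratios on the arrays were -2.19 and -2.19 for M8/M3, -1.52 and -2.02 for M8/M4, -1.67 and -1.73 for F8/F3, and -1.41 and -1.48 for F8/F4, and the fit gave -2.19 (SE 0.12) for M8/M3, -1.77 (SE 0.12) for M8/M4, -1.70 (SE 0.12) for F8/F3 and -1.44 (SE 0.12) for F8/F4. The M8/M3 arrays of this gene were equal to 2 decimals, whereas the M8/M4 arrays differed by more than those of any female comparison. Col5a1 and Col5a2 encode chains of type V collagen, which lies in the core of collagen I fibrils. Col5a2 had the lowest mean of all members, at -2.17 and -2.78 for M8/M3, -1.51 and -2.37 for M8/M4, -2.25 and -2.79 for F8/F3, and -1.72 and -1.81 for F8/F4. Col5a1 was at -1.42 and -1.59 for M8/M3, -0.94 and -1.22 for M8/M4, -1.20 and -1.32 for F8/F3, and -0.74 and -0.88 for F8/F4. The fitted decrease of Col5a2 was 5.56-fold in M8/M3 and 5.74-fold in F8/F3, and that of Col5a1 was 2.84-fold and 2.4-fold. With normexp background correction and loess normalization the log2 ratios of Col5a2 were nearer to 0, at -0.99 for M8/M3 and -1.78 for F8/F3, and in M8/M3 it no longer had the lowest ratio, which was that of Col1a1 (-2.24).

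Col27a1, which encodes a fibrillar collagen best known from cartilage, was higher at 8 wk in male liver and was not called in female liver. Its log2 ratio was 1.15 and 1.38 for M8/M3 and 0.98 and 0.97 for M8/M4, but -0.19 and 0.27 for F8/F3 and 0.08 and 0.36 for F8/F4. The male arrays all lie above the female arrays. Male liver had 2.4-fold more Col27a1 RNA at 8 wk than at 3 wk (log2 1.26, SE 0.08, adjusted p = 0.000298) and 1.97-fold more than at 4 wk (adjusted p = 0.0007). In female liver the fitted values were 0.04 (95% interval -0.16 to 0.23) and 0.22 (0.03 to 0.42).

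Of the 3 beaded-filament and fibril-associated collagens with a probe, all 3 were called lower in M8/M3 and 1 in each other age comparison. Col6a1, a chain of the type VI collagen that forms beaded filaments around cells, was at -1.07 and -0.99 for M8/M3, -0.80 and -0.69 for M8/M4, -0.84 and -0.79 for F8/F3, and -0.72 and -0.66 for F8/F4. All 8 arrays lie in a narrow band below 0, and the fitted values were -1.03 (SE 0.04) for M8/M3, -0.75 (SE 0.04) for M8/M4, -0.82 (SE 0.04) for F8/F3 and -0.69 (SE 0.04) for F8/F4, with adjusted p of 7.74e-05 to 0.000195. Col6a2, a second chain of the same collagen, was called in M8/M3 only (-0.69, adjusted p = 0.00289) and was at -0.37 in M8/M4, and -0.54 and -0.35 in the female comparisons. The M8/M3 call of Col6a2 was lost with normexp and loess, at -0.20. Col14a1, a collagen that decorates fibrils, was likewise called in M8/M3 only (-0.72), and its other ratios, -0.58, -0.47 and -0.40, passed the adjusted p but were within 1.5-fold.

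Of the 11 basement membrane genes, 6 fell in 1 or more age comparison and 5 were not called in any. Col4a1 and Col4a2 encode the chains of the collagen IV network. Col4a1 was at -1.51 and -1.54 for M8/M3, -0.93 and -1.06 for M8/M4, -1.39 and -1.54 for F8/F3, and -1.11 and -1.09 for F8/F4. Its fitted decrease, 2.88-fold in M8/M3 and 2.76-fold in F8/F3, was larger than that of Col4a2, 1.66-fold and 1.82-fold. Col4a2 was called in M8/M3, F8/F3 and F8/F4 and was -0.55 in M8/M4, within 1.5-fold. The difference between the 2 genes was not tested.

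Lama2, Lamb1 and Lamc1 encode the alpha 2, beta 1 and gamma 1 chains of laminin, and Nid1 encodes nidogen 1, which links laminin to collagen IV. Lama2 was at -1.23 and -1.22 for M8/M3, -0.78 and -0.96 for M8/M4, -1.04 and -1.21 for F8/F3, and -0.49 and -0.81 for F8/F4. Lamc1 was at -1.41 and -1.0 for M8/M3, -0.93 and -0.74 for M8/M4, -1.16 and -1.05 for F8/F3, and -0.78 and -0.65 for F8/F4. Nid1 was at -1.24 and -1.51 for M8/M3, -0.81 and -1.28 for M8/M4, -1.07 and -1.25 for F8/F3, and -0.79 and -1.01 for F8/F4. These 3 genes were called lower in all 4 comparisons, with fitted ratios between -1.38 (Nid1, M8/M3) and -0.65 (Lama2, F8/F4). A second, dimmer probe of Lama2 was called in the first 3 comparisons and was at -0.48, not called, in F8/F4. Lamb1 was called in 3 comparisons, at -0.92, -0.71 and -0.79, and was -0.52 in F8/F4.

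The other laminin chains and the remaining basement membrane genes were not called in any age comparison. Lama5, the alpha 5 chain, had fitted ratios of -0.53 for M8/M3, -0.28 for M8/M4, -0.45 for F8/F3 and -0.38 for F8/F4. Those of Lamb2, the beta 2 chain, were -0.28 for M8/M3, -0.03 for M8/M4, -0.19 for F8/F3 and -0.09 for F8/F4. Hspg2, which encodes perlecan, a heparan sulfate proteoglycan of basement membranes, was at -0.54 for M8/M3, -0.36 for M8/M4, -0.48 for F8/F3 and -0.19 for F8/F4 and passed the adjusted p in the first 3, within 1.5-fold. Col18a1, whose product is cut to release endostatin, was at 0.15 and 0.03 for M8/M3 and 0.07 and -0.09 for F8/F3, with 95% intervals of -0.01 to 0.19 and -0.11 to 0.10. These are the narrowest intervals among the uncalled members of the group. Col15a1, the highest member of this group in female liver, was at 0.75 and 0.33 for F8/F3 and 0.44 and 0.99 for F8/F4 and was not called. It was not well above background in any of the 4 channels of the F4 group.

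Among elastic fibre genes, Eln, which encodes elastin, had the lowest ratios. They were -2.22 and -2.12 for M8/M3, -1.60 and -1.70 for M8/M4, -1.89 and -1.61 for F8/F3, and -1.45 and -1.44 for F8/F4. The fitted values of -2.17 (SE 0.08) for M8/M3, -1.65 (SE 0.08) for M8/M4, -1.75 (SE 0.08) for F8/F3 and -1.44 (SE 0.08) for F8/F4 had adjusted p of 7.33e-05 to 0.000181. With normexp and loess Eln was at -1.38 for M8/M3, near Fbn1 at -1.39, and was called. Fbn1 encodes fibrillin 1, the microfibril protein on which elastin is laid down, and was at -1.43 and -1.83 for M8/M3, -1.12 and -1.54 for M8/M4, -1.32 and -1.23 for F8/F3, and -0.97 and -1.01 for F8/F4. Fbln5, a fibulin needed for elastic fibre assembly, was at -0.88 and -1.14 for M8/M3, -0.68 and -0.97 for M8/M4, -0.78 and -0.69 for F8/F3, and -0.46 and -0.71 for F8/F4. All 3 genes were below 0 on every age array and called in all 4 comparisons, with 4.5-fold, 3.1-fold and 2.02-fold lower RNA in M8/M3. A second, dimmer probe of Fbln5 was at -0.47 and -0.48 in the male and -0.53 and -0.26 in the female comparisons and was not called. The F8/F4 call of Fbln5 was also lost with the mean over probes (-0.42), with normexp and loess (-0.55) and with error-weighted averages (-0.58). Fbln1, a related protein, was not called in any age comparison by its brightest probe (M8/M3 -0.54, F8/F3 -0.11), although a second probe was called in M8/M3 at -0.63 and in M8/M4 at -0.62.

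The matricellular genes encode secreted proteins that bind matrix and cells without building fibres. Sparc, a collagen-binding glycoprotein, was at -1.15 and -1.65 for M8/M3, -0.94 and -1.48 for M8/M4, -1.34 and -1.54 for F8/F3, and -1.09 and -1.15 for F8/F4. Postn, which encodes periostin, was at -1.41 and -1.62 for M8/M3, -0.95 and -1.30 for M8/M4, -1.08 and -1.27 for F8/F3, and -0.74 and -0.63 for F8/F4. Both were called in all 4 comparisons, Sparc at 2.64-fold lower in M8/M3 and 2.71-fold lower in F8/F3, and Postn at 2.86-fold and 2.26-fold. Tgfbi, a matrix protein named for its induction by TGF-beta, was called in M8/M3 only (-0.69) and was at -0.48, -0.36 and -0.38 in the other 3.

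Fn1, which encodes fibronectin, was not called in any age comparison. Its ratios were -0.72 and -0.29 for M8/M3, -0.41 and -0.19 for M8/M4, -0.28 and 0.09 for F8/F3, and -0.27 and 0.21 for F8/F4. Replicate 1 was lower than replicate 2 in each of the 4 comparisons, which share pools and have their dyes in opposite order on the 2 arrays. In the 3 sex comparisons, where replicate 1 had the first group in red rather than green, replicate 1 was the higher array. The cause was not tested. The fitted values, with the dye term, were -0.51 (SE 0.05) for M8/M3, -0.30 (SE 0.05) for M8/M4, -0.10 (SE 0.05) for F8/F3 and -0.03 (SE 0.05) for F8/F4, and both male values had an adjusted p below the threshold (0.0014 and 0.0102) within 1.5-fold.

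Small leucine-rich proteoglycans bind collagen fibrils and set their spacing. Lum, which encodes lumican, was the only 1 of these 3 genes to be called, at -1.15 and -0.78 for M8/M3, -0.68 and -0.61 for M8/M4, -0.93 and -0.79 for F8/F3, and -1.0 and -0.84 for F8/F4, with a fitted decrease of 1.95-fold in M8/M3 and 1.82-fold in F8/F3. Dcn, which encodes decorin, was at -0.25 for M8/M3, -0.03 for M8/M4, -0.23 for F8/F3 and -0.25 for F8/F4. Bgn, which encodes biglycan, was at -0.28 for M8/M3, -0.22 for M8/M4, -0.30 for F8/F3 and -0.26 for F8/F4. The 95% intervals in M8/M3, -0.47 to -0.03 for Dcn and -0.51 to -0.04 for Bgn, hold no decrease as large as the fitted value of any called fibrillar collagen.

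Lox and Loxl1 encode lysyl oxidases, the enzymes that start the cross-linking of collagen and elastin. Lox was at -1.99 and -2.16 for M8/M3, -1.33 and -1.83 for M8/M4, -1.88 and -1.25 for F8/F3, and -1.45 and -1.26 for F8/F4. It was called in all 4 comparisons, with a 4.22-fold decrease in M8/M3 (adjusted p = 0.000693) and a 2.96-fold decrease in F8/F3 (adjusted p = 0.0019). With normexp and loess the calls of Lox held at smaller values, -0.76 for M8/M3 and -0.90 for F8/F3. Loxl1 was called in M8/M3, M8/M4 and F8/F3 (-1.20, -0.89 and -1.04) and was -0.52 in F8/F4. A dimmer second probe of Loxl1 was called in M8/M3 alone, at -0.84. That of Lox was also called in M8/M3 alone, but it was well above background in 12 of 28 channels and in none of the M8 channels of that comparison, so it gives a decrease of at least 2.63-fold. Such bounds set the mean processed signal of the brighter group against the dimmer one, raised on each array to the lowest signal of any probe well above background.

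Of the protease and inhibitor genes, Mmp2 fell and the inhibitors were not called. Mmp2, a gelatinase secreted by mesenchymal cells, was at -1.09 and -1.02 for M8/M3, -0.68 and -0.61 for M8/M4, -1.05 and -0.77 for F8/F3, and -0.85 and -0.50 for F8/F4, and its fitted decrease was 2.08-fold in M8/M3 and 1.88-fold in F8/F3. With normexp and loess its M8/M4 value was -0.58, within 1.5-fold. Timp3, an inhibitor held in the matrix, was above 0 on all 8 arrays (0.35 and 0.42 for M8/M3, 0.27 and 0.41 for M8/M4, 0.22 and 0.27 for F8/F3, and 0.12 and 0.32 for F8/F4). Its fitted values of 0.39 for M8/M3, 0.34 for M8/M4, 0.25 for F8/F3 and 0.22 for F8/F4 were within 1.5-fold, and the first 3 had adjusted p of 0.00751, 0.0122 and 0.0391. Timp2 was at -0.35 for M8/M3, -0.16 for M8/M4, -0.27 for F8/F3 and -0.41 for F8/F4. Timp1 was well above background in 18 of 28 channels and its arrays disagreed, with -1.46 and 1.63 in M8/M3, so no direction can be given for it in male liver. Its female arrays were below 0, at -1.36 and -0.71 for F8/F3 and -0.62 and -0.07 for F8/F4, and it was not called.

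Male and female liver were next compared for the age difference itself, using M8/M3 minus F8/F3, which share no pool and were scanned on different days. Col27a1 was the only member with a called difference between the sexes, against 3.36% of all genes tested. The difference was 1.22 (SE 0.115, adjusted p = 0.00439), and the sex arrays, M8/F8 minus M3/F3, gave 1.18, which is not separate evidence because those arrays hold the same pools. For M8/M4 minus F8/F4 it was also the only member called, against 1.31% of genes, at 0.75 (adjusted p = 0.0332). That second call held in 12 of 27 alternative settings, with values from 0.62 to 0.89, and was lost with the replicate block and when 1 array was left out in 11 of 14 cases.

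No other member had a called difference between the sexes. The difference between the sexes was below 0, towards a larger decrease in males, for 29 of 37 members from 3 to 8 wk, with a median of -0.15, and for 25 from 4 to 8 wk, with a median of -0.10. The medians over all genes tested were between -0.01 and 0.01. At an unadjusted p below 0.05 there were 11 members from 3 to 8 wk and 8 from 4 to 8 wk, and 26.3% and 17.6% of all genes, so these counts are near the background. Fn1 passed the adjusted p from 3 to 8 wk (-0.41, SE 0.07, adjusted p = 0.0301) but was within 1.5-fold. Col3a1 was at -0.49 with a 95% interval of -0.88 to -0.10, and Col1a1 at -0.31 with -1.15 to 0.52.

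**Figure D2:**
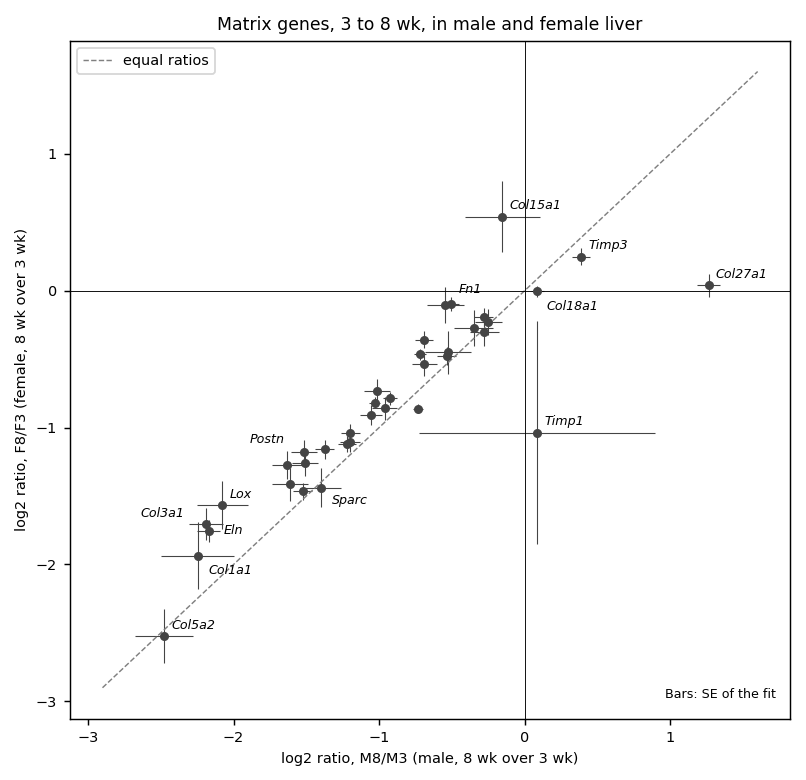
Log2 ratio of 8 wk over 3 wk in male liver (x axis, M8/M3) and in female liver (y axis, F8/F3) for the 37 matrix genes, with bars for the SE of the limma fit and a dashed line where both are equal. Most genes lie close to the dashed line below 0, and Col27a1 stands to its right at 1.26 in male and 0.04 in female liver.

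Sex differences at a fixed age were called for few matrix genes, at 4 and 8 wk. None of the 35 members tested in M3/F3 was called by limma, against 0.517% of all genes, with 0 by error-weighted averages and 6 at an unadjusted p below 0.05, as were 11.8% of all genes. In M4/F4, 1 of 35 was called, against 1.58% of genes, and in M8/F8 3 of 35, against 6.4%, so these shares are close to the background. Col1a1 (M8/F8 0.03, 95% interval -0.56 to 0.62), Col1a2 (-0.13, -0.41 to 0.16) and Col3a1 (-0.23, -0.51 to 0.04) were not called between adult male and female liver. Col15a1 and Timp1 were too dim for the sex tests.

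Col27a1 was the called gene of M4/F4 and was higher in male liver on all 6 sex arrays, at 0.34 and 0.21 for M3/F3, 0.71 and 0.63 for M4/F4 and 1.66 and 1.26 for M8/F8. The ratio was larger at each later age, with fitted values of 0.28 (adjusted p = 0.0727), 0.67 (adjusted p = 0.00274) and 1.46 (adjusted p = 0.000194), the last of which is a 2.75-fold male excess. With normexp and loess the M4/F4 ratio was 0.55, within 1.5-fold, and was not called.

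Fn1 and Postn were lower in adult male than in adult female liver. Fn1 was at 0.01 and -0.36 for M3/F3, -0.30 and -0.51 for M4/F4 and -0.46 and -0.87 for M8/F8, so the adult arrays were the lowest for each replicate. The fitted ratio in M8/F8 was -0.66 (SE 0.05, 1.59-fold lower, adjusted p = 0.000533), and M4/F4 passed the adjusted p at -0.41 within 1.5-fold. With no dye term in the fit the ratio was the same, -0.66, and the call was lost on its adjusted p. Postn was at -0.18 and -0.29 for M3/F3, -0.30 and -0.09 for M4/F4 and -0.57 and -0.64 for M8/F8. All 6 of its arrays were below 0, and its M8/F8 ratio was -0.61 (1.52-fold lower, adjusted p = 0.00587). Without M8/F8 replicate 2 the call of Postn was lost, at -0.51. Among the 18 genes lower in all 4 age comparisons, Postn was the only 1 called in M8/F8.

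**Figure D3:**
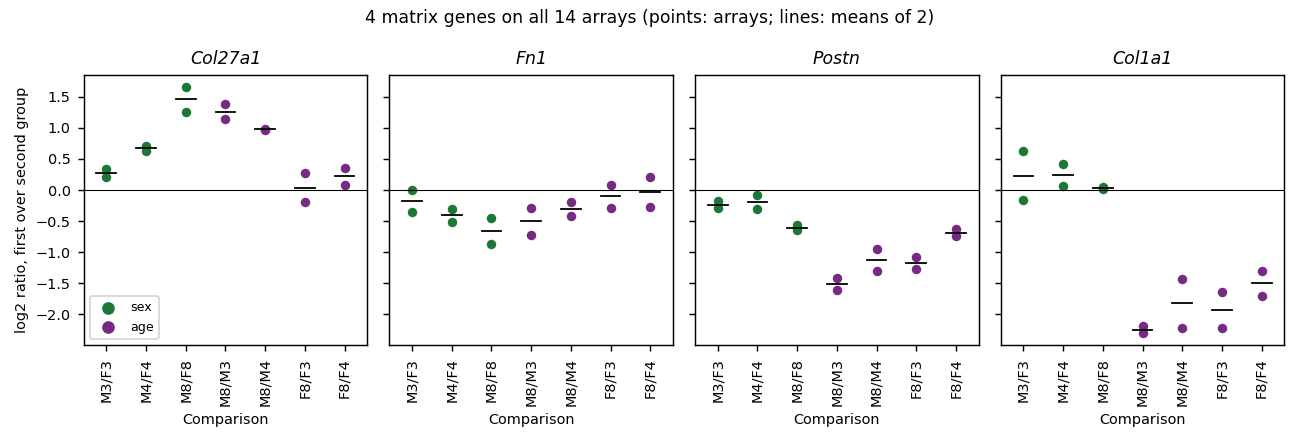
Log2 ratio on each of the 14 arrays (points) and the mean of 2 arrays (lines) for Col27a1, Fn1, Postn and Col1a1 in the 7 comparisons (x axis), with sex comparisons in green and age comparisons in purple. Col27a1 is above 0 in all sex comparisons, Fn1 and Postn are lowest among the sex comparisons in M8/F8, and Col1a1 is near 0 in M8/F8 and far below 0 in the age comparisons.

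Whether the decrease had begun by 4 wk was read from M8/M3 minus M8/M4 and from F8/F3 minus F8/F4, in which the shared 8 wk pools cancel. No member was called by limma in male liver, against 0.292% of genes, or in female liver, against 0.0931%. Error-weighted averages gave 0 as well, and at an unadjusted p below 0.05 there were 20 members in male and 12 in female liver, and 17.4% and 14.2% of all genes. The values were below 0, lower at 4 than at 3 wk, for 34 of 37 members in males (median -0.25) and 31 in females (median -0.21), where the medians over all genes were 0.01 or less. For Eln the fitted change from 3 to 4 wk was -0.52 in males (95% interval -0.79 to -0.26, adjusted p = 0.116) and -0.31 in females (-0.58 to -0.04). No liver of 3 and 4 wk was hybridized on the same array, and M8/M3 and M8/M4 were scanned on different days.

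Genes that process or sense the matrix were counted beside the members, and their counts stand against the shares of all genes tested, 10% lower and 7.81% higher in M8/M3 and 6.64% lower and 5.08% higher in F8/F3. Of 22 genes for collagen-modifying enzymes and chaperones, 8 were lower in each of M8/M3 and F8/F3, and none was higher. Loxl4, a further lysyl oxidase, was at -2.29 for M8/M3, -1.60 for M8/M4, -2.02 for F8/F3 and -1.21 for F8/F4. Serpinh1, the collagen chaperone HSP47, was at -1.66 for M8/M3, -1.27 for M8/M4, -1.42 for F8/F3 and -0.99 for F8/F4, and Loxl2 at -1.36 for M8/M3, -0.79 for M8/M4, -1.14 for F8/F3 and -0.73 for F8/F4. All 3 were called in all 4 age comparisons. Among 15 other matrix metalloproteinases and related genes, inhibitors included, of which 11 were tested in M8/M3 and 12 in F8/F3, 6 were lower and 1 higher in M8/M3, and 4 were lower and 1 higher in F8/F3. The higher genes were Mmp15, a membrane-bound metalloproteinase (0.75 in M8/M3), and Reck, a membrane-anchored inhibitor (0.67 in F8/F3), and were named after their values were seen. Mmp8, the neutrophil collagenase, was called in M8/M3 and F8/F3 but was not well above background at 8 wk, so its decrease is known only as at least 1.4-fold in M8/M3 and at least 1.99-fold in F8/F3. Adamts4 was called in M8/M3 (-1.33), M8/M4 and F8/F3 (-1.03), and Adamts5 in all 4, from -1.33 in M8/M3 to -0.61 in M8/M4. Mmp3 was not well above background in any channel.

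Matrix receptors and growth factors were counted in the same way. Of 22 receptor genes, 19 of which were tested, 6 were lower in M8/M3 and 2 in F8/F3. Itga6, an integrin chain that binds laminin, was called in M8/M3 alone (-2.30) and was -1.39 in F8/F3, Itga5 was called in M8/M3 (-0.83) and M8/M4 (-0.75), and Itga11 in M8/M3 (-0.64). Sdc1, a syndecan of hepatocytes, was lower in adult males (M8/F8 -0.72, adjusted p = 0.00155) and differed between the sexes in its change from 3 to 8 wk (-0.86, adjusted p = 0.0102). Itgb8 was not well above background in any channel. Of 22 genes of TGF-beta, CCN and PDGF signalling, 4 were lower and 1 higher in M8/M3, and 2 were lower in F8/F3, so the higher count and that of F8/F3 are near the shares of all genes. Tgfb2 was called lower in M8/M3 (-1.06), M8/M4 and F8/F3 (-1.08), and Ltbp2, a binding protein of latent TGF-beta, in M8/M3 (-1.12), M8/M4 and F8/F4. Ccn1 was called higher in M8/M3 (0.71) and M8/M4 (0.80).

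**Figure D4:**
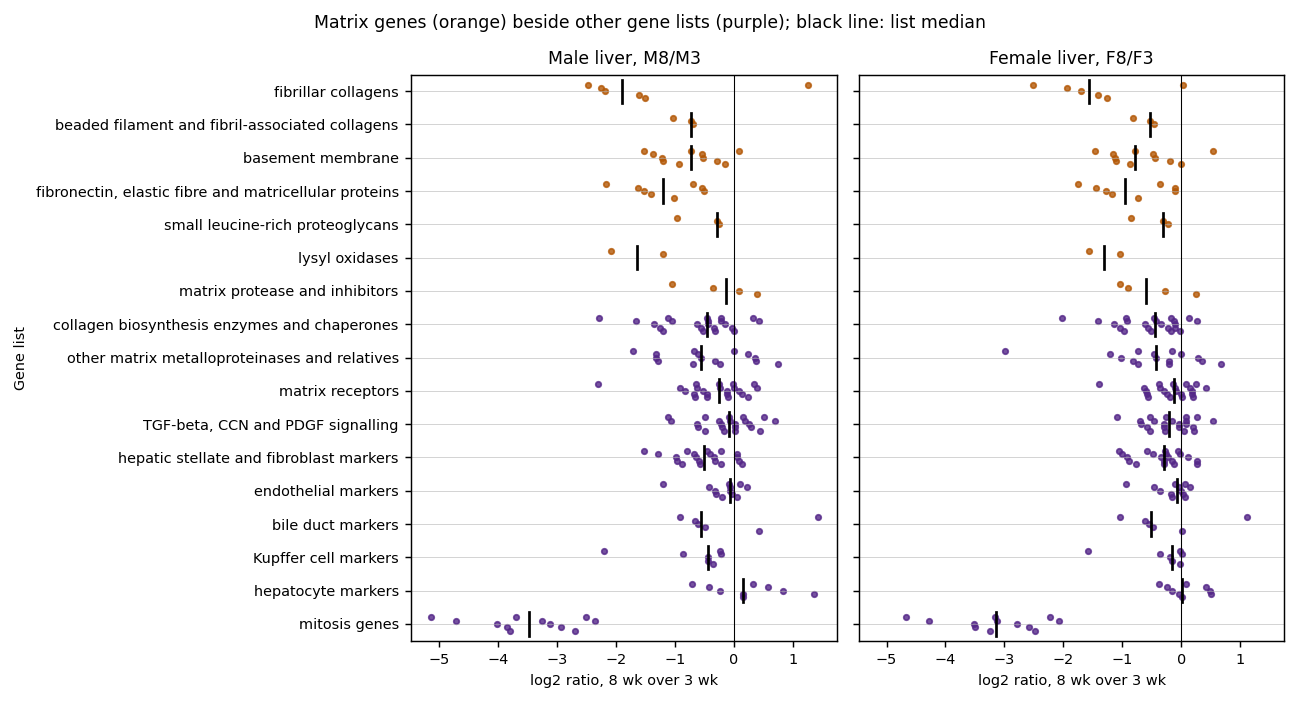
Log2 ratio of 8 wk over 3 wk for each gene (points) of the matrix groups (orange) and of other gene lists (purple), in male liver (left) and female liver (right), with a black line at each list median. The fibrillar collagens have the lowest median of the matrix groups, the median of the mitosis genes is lower than that of every matrix group, and the endothelial list is centred near 0.

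Markers of other cells of the liver were counted beside the matrix genes, against the same shares of all genes (6.37% lower in M8/M4 and 3.72% in F8/F4). Of 20 hepatic stellate cell and fibroblast markers, 9 were called lower for M8/M3, 5 for M8/M4, 6 for F8/F3 and 3 for F8/F4, and none was higher, with medians of -0.51, -0.34, -0.29 and -0.23. Mfap4 (-1.29 in M8/M3, -1.06 in F8/F3), a microfibril protein, and Vim (-0.96, -0.93), which encodes vimentin, were called in all 4 age comparisons. They were named for the size of their decrease, and not all markers fell. In M8/M3, 16 markers were below 0 and 4 above, and in F8/F3, 17 and 3. Cygb (0.05 in M8/M3, 0.27 in F8/F3) and Ecm1 (0.14, 0.27) were above 0 in both, and Lrat was at -0.32 and 0.11. Thy1 (M8/F8 -0.78, adjusted p = 0.019) was lower in adult males, as Postn and Fn1 were. In M8/F8, 16 of the 20 markers lay below 0 and 4 above, among the latter Acta2 (0.27) and Tagln (0.37), which were not called. The summed processed signal of the 20 markers, in arbitrary units, was 35558 to 56181 over the channels of M3, 35448 to 48170 in M4, 26678 to 34747 in M8, 38452 to 74617 in F3, 41262 to 60289 in F4 and 34127 to 52842 in F8. The M8 channels lie below those of M3 and M4, whereas the F8 channels overlap those of F3 and F4. The sums were not scaled between arrays or tested. Of the 20 markers, 0 had a called sex difference in the age change from 3 to 8 wk or from 4 to 8 wk, against 3.36% and 1.31% of all genes. For comparison, the sum over the 6 fibrillar collagens was 36530 to 67102 in M3, 36995 to 57461 in M4, 12581 to 16811 in M8, 34672 to 74136 in F3, 33219 to 49289 in F4 and 14750 to 22116 in F8, without overlap between 8 wk and the younger ages of either sex. Such sums weigh the brightest probes most, and how many other gene sets separate in the same way was not counted. Of the 20 markers, 19 were well above background in all 28 channels and the remaining 1 in 21, and the part of this list in the collagen decrease was not tested.

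Of the endothelial list, 1 of 12 genes was lower in M8/M3, M8/M4 and F8/F3, which was Lyve1 (-1.20 in M8/M3), and none in F8/F4, a share near that of all genes. Its summed signal was 32186 to 52107 in M3, 37105 to 46936 in M8, 34814 to 65980 in F3 and 40569 to 59200 in F8. Of the 6 bile duct markers, 2 were lower and 1 higher in M8/M3, and 1 was lower and 1 higher in F8/F3. Cftr was called higher in all 4 age comparisons (1.42 in M8/M3, 1.12 in F8/F3), Sox9 was lower in F8/F3 (-1.04) and F8/F4, and Krt19 was lower in M8/M3 (-0.66) and M8/M4. The bile duct sum was 5014 to 9730 in M3, 5242 to 7608 in M8, 4431 to 7751 in F3 and 4112 to 6297 in F8.

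Of 7 Kupffer cell markers with a probe, 2 were lower for M8/M3, 1 for F8/F3 and 4 for M8/F8, where 10%, 6.64% and, in either direction, 6.4% of all genes were called. Marco was called in all 4 age comparisons (-2.20 in M8/M3, -1.58 in F8/F3) and in M8/F8 (-1.05), with Adgre1 (-0.65), Timd4 (-0.67) and Clec4f (-0.59) also lower in adult males. The Kupffer sum was 22317 to 36580 in M3, 19078 to 27629 in M8, 27877 to 52888 in F3 and 30742 to 45556 in F8. The M8 and F8 channels did not overlap, but these sums were not scaled between arrays or tested. All 12 mitosis genes were lower in all 4 age comparisons, among them Bub1 (-4.71 in M8/M3) and Ccnb1 (-3.79). Aurkb was not well above background at 8 wk and was at least 10-fold lower in M8/M3. Among the 9 hepatocyte markers, 1 was lower and 3 were higher in M8/M3 and none was called in F8/F3. The part of these lists in the matrix results was not tested.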

How the data were processed

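Liver RNA pools were compared on 14 two-colour Agilent arrays. The authors deposited, per spot, intensity values in arbitrary units and the log10 ratio of red over green, which Agilent Feature Extraction 10.7.1.1 computed after background subtraction and dye normalization; the deposited series table held the same log10 ratios (largest difference 0). The deposited log10 ratio errors were used for 1 alternative only. Ratios were converted to log2 here from the deposited values and turned to male over female or older over younger by the dyes in the labels. Non-uniform spots (0 to 10 per array) were left out and spots of a probe were averaged, giving 39429 probes, of which 26055 were named through RefSeq accessions and 13374 were not. The log2 ratios of all probes were fitted with limma 3.58.1 in R 4.3.3 (data.table version 1.17.8), with 1 coefficient per comparison and a dye term. P-values were adjusted by Benjamini-Hochberg jointly over all probes and 7 comparisons, and separately for each difference between comparisons. Differences between sexes and between 3 and 4 wk were contrasts of these coefficients. Intervals are 95% intervals of the fit.

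The members and the gene lists were chosen with earlier results of these data known. All members were named, and of each other list the 3 genes with the largest mean age difference among those called, plus any called in M8/F8 or in a sex difference of the age change; 1 such gene is not reported here. The arrays lay on 4 slides scanned on 2 days, with the sex comparisons and M8/M3 on the first day. The differences M8/M3 minus F8/F3 and M8/M3 minus M8/M4 therefore also set 1 scan day against the other. Each slide held 1 replicate number of several comparisons. Replicates with the same number share pools across comparisons, by the labelled group sizes and by the data: deviations from the mean correlated over genes at 0.66 between M8/M3 and M8/M4 and 0.54 between F8/F3 and F8/F4. Alternatives covered background correction, adjustment, thresholds, the dye term, slides, the replicate block, probe choice and leaving out each array. The normexp alternative used median spot signals.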

Additional observations from a re-analysis of the deposited data

Results flagged for a closer look

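Col27a1 stood apart because its age difference differed between the sexes by the test of that difference. From 3 to 8 wk the male minus female difference was 1.22 on the log2 scale (95% interval 0.95 to 1.5, adjusted p = 0.00439), with both male arrays at 1.15 or above and both female arrays at 0.27 or below. From 4 to 8 wk it was 0.75 (95% interval 0.48 to 1.03, adjusted p = 0.0332), a call lost with the replicate block, with the slide as a block and when 1 array was left out in 11 of 14 cases. The gene has 1 probe, so no second probe bears on it. M8/M3 and F8/F3 were scanned on different days, and an effect of the day was not tested.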

How the results depend on the processing

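The 92 called values of matrix genes were recomputed under 27 alternative settings, which gave 2484 values. Of these, 2444 kept their call, 40 kept their direction but lost it, and none changed direction. This total overstates the test. The settings without a fold threshold or a filter on dim probes only relax the rule, and each kept all 92 calls. Each leave-out removes an array of 1 comparison, while all 92 values were counted. The second brightest probe lost 10 calls, although most members have 1 probe, which that setting used again. The counts of members lower at 8 wk were 23 to 28 in M8/M3, 18 to 27 in M8/M4, 18 to 25 in F8/F3 and 16 to 24 in F8/F4. Without a fold threshold, 2 members were higher in M8/M3, 2 in M8/M4 and 1 in F8/F3 (Timp3 joined or stood alone), 1 was called in M3/F3, 4 in M4/F4, 9 in M8/F8 and 2 in the sex difference from 3 to 8 wk. With normexp and loess, 0 were called in M4/F4 and 2 in that sex difference (Col27a1 and Fn1). With error-weighted averages, 2 were called in the sex difference from 3 to 8 wk (Col27a1 and Timp1) and 0 from 4 to 8 wk. The Col27a1 difference from 4 to 8 wk was also lost, with a count of 0, with no dye term, with the slide as a block and with the replicate block. Leaving out 1 array gave 0 to 1 members higher in F8/F4 (Col15a1 without F8/F4 replicate 1), 1 to 2 called in M4/F4 (Timp2 joined without M4/F4 replicate 2) and 0 to 1 in the sex difference from 4 to 8 wk. It was 0 without either replicate of any sex comparison, of M8/M3 or of F8/F4, or without M8/M4 replicate 1. The cause of these moves was not tested beyond the change of threshold or of arrays. With the replicate block the counts of members lower at 8 wk stayed at 24, 20, 21 and 19, also when pools were modelled as shared. Apart from the sex difference from 4 to 8 wk, which went to 0, the replicate block changed no other count by over 1.5 times. A fit limited to probes well above background, an alternative chosen after seeing the data, kept all 92 calls. Precision is limited by 2 arrays per comparison and, for Col15a1 and Timp1, by signal over background.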
